A study of Mus musculus with 29 samples.

Results

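Alveolar septa of newborn mice were compared between the early and the middle days of septation, the period in which the simple air sacs of the newborn lung are subdivided into alveoli. The comparison set 4 libraries of postnatal days (P) 4 and 5, P4a, P4e, P5b and P5e, against 4 libraries of P7 and P10, P7c, P7d, P10a and P10f. They were chosen by age alone and are 8 of the 29 libraries of a time course that runs from before birth to P28. Every library came from 1 pup, with 2 pups at each of the 4 ages. All were wild type C57BL/6 and untreated, born to timed-pregnant dams, and whether pups of 1 age were littermates is not given in the sources used here. Septa were picked by their shape in frozen sections with a laser, which cut around large vessels and bronchi, and the captured RNA was depleted of ribosomal RNA and sequenced. A library is therefore a mixture of every cell in the septum, and in all that follows fewer cells of a type and less RNA per cell cannot be told apart.

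During septation, crests grow out of the walls of the air sacs. Myofibroblasts that respond to platelet-derived growth factor lay down elastin at the crest tips. The growing wall also holds capillary endothelium. With it are alveolar type 1 cells, which form the thin gas exchange surface, and alveolar type 2 cells, which make surfactant. Growth of the lung after birth is known to slow as a set of mostly imprinted fetal growth genes, expressed from 1 parental allele, is switched off in many organs. The lists of genes described below cover these processes, the signals that pass between the cells, and the other cell types that a cut through the lung can pick up. The lists were chosen with earlier results of these data known. The share of a list set beside that of all genes is therefore a description and not a test.

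Values are FPKM, fragments counted for a gene relative to its transcript length and to the mapped fragments of the library, as the authors deposited them. In each sentence that lists values by library, the order is P4a, P4e, P5b and P5e, then P7c, P7d, P10a and P10f. Changes are P7-P10 minus P4-P5 on the scale of log2(FPKM + 1), so a negative value means less at P7-P10, and the added 1 makes changes of genes of a few FPKM look smaller than they were. Tests are from limma, with p-values adjusted over the 12764 genes at 1 FPKM or more in at least 4 of the 8 libraries.

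The library P10a stood apart before any comparison was made. It listed 416 of 8623 protein-coding genes that are expressed across the time course at 0, P7c listed 102, and each of the other 6 between 3 and 15. Pairs of P4-P5 libraries correlated at r = 0.890 to 0.916 across genes (median 0.903), and pairs of P7-P10 libraries at 0.775 to 0.906 (median 0.837). Pairs with 1 library from each group lay at 0.781 to 0.915 (median 0.876). By the balance of Xist against 4 Y-linked genes, 6 of the 8 libraries went against the sex on their label, and 2 of 4 in each group showed the Xist pattern. The sex labels were therefore not relied on, and the age labels could not be checked in this way. Markers of the labelled tissue were present: the summed FPKM of 4 type 2 cell markers lay at 9101.5 to 13676.5 at P4-P5 and 5725.9 to 10906.1 at P7-P10, that of 3 endothelial markers at 521.5 to 568.5 and 506.6 to 712.3, and no marker of these types, of type 1 cells or of septal fibroblasts was at 0 in any of the 8. Body weights on the labels ran from 2.4 to 3.7 g at P4-P5 and from 3.2 to 6.5 g at P7-P10.

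Between the groups, 1 gene passed an adjusted p of 0.05, and it was lower at P7-P10: Dlk1, 0.00783% of the genes tested. None passed in the higher direction (0%). Without P10a the counts were the same, 0 higher (0%) and 1 lower (0.00783%). Before adjustment, 273 genes (2.14%) were higher and 859 (6.73%) lower at p under 0.05, and without P10a 210 (1.65%) and 512 (4.01%). The 4 libraries of one group lay wholly above those of the other for 199 genes that were higher (1.56%) and 467 that were lower (3.66%) at P7-P10, and without P10a for 380 (2.98%) and 683 (5.35%). The median change of all genes was -0.11, and -0.05 without P10a. After quantile normalization, which gives all libraries the same distribution, it was 0.03 and the genes at p under 0.05 before adjustment were 615 higher and 573 lower, so the excess of lower over higher values depended on the scaling. The interval around the change of a typical gene was wide, a median of ±0.77 at 95% confidence.

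A straight-line trend on log2 of the postnatal day over the same 8 libraries used the ages within each group, P4 apart from P5 and P7 apart from P10. With it 25 genes fell with age (0.196%) and 4 rose (0.0313%). Of the 25, 10 belonged to the lists of mitosis, DNA replication and histone genes, which together hold 75 of the genes tested. The counts rested on single libraries. Without P10a 15 genes fell, of which 9 were among the 25, and 0 rose, without P10f 0 and 0 (1669 and 484 before adjustment), and without P7c 32 and 5. Leaving out P4a, P4e, P5b, P5e or P7d left 1, 3, 2, 2 or 4 that fell, and 1 that rose without P5b. Dlk1 was not among the trend calls (adjusted p = 0.116).

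**Figure D1:**
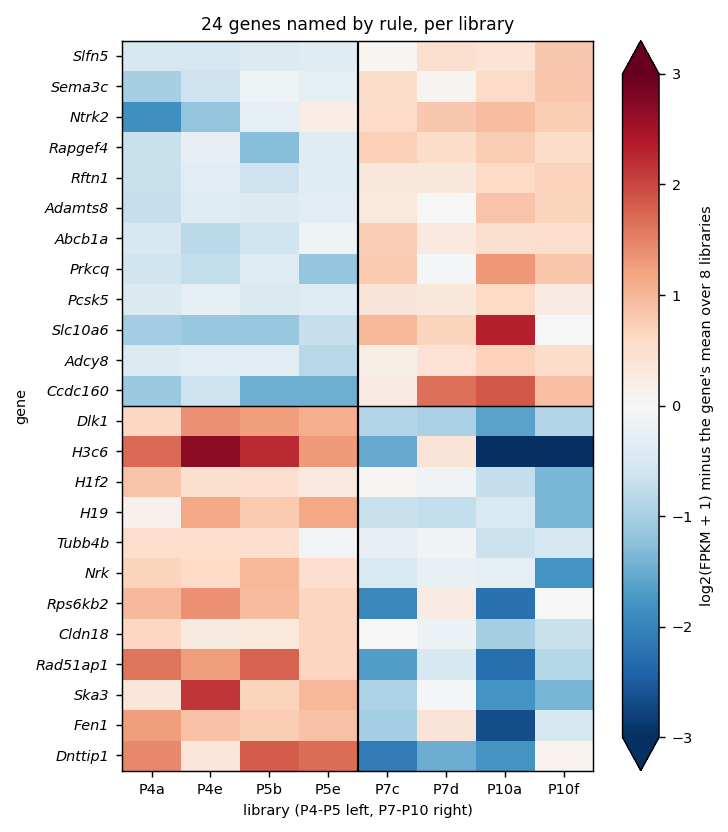
The 24 genes that the naming rule picked, 12 with higher and 12 with lower values at P7-P10, as rows, and the 8 libraries as columns, coloured by log2(FPKM + 1) relative to each gene's mean over the 8. The libraries of P4-P5 and of P7-P10 do not overlap in any row because the rule asked for that. Dlk1, the first row below the dividing line, is the 1 gene that passed the adjusted threshold, and H3c6 is darkest in P10a and P10f, where it is listed at 0.

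The gene that passed, Dlk1, encodes a transmembrane protein of fetal progenitor cells that resembles Notch ligands and is expressed from the paternal allele. It lies at chr12:109452485-109463336 of GRCm38 and measured 3.65, 6.92, 6.30 and 5.47 FPKM at P4-P5 and 0.655, 0.538, 0 and 0.646 FPKM at P7-P10. The lowest P4-P5 library stood far above the highest P7-P10 library, at a level that is low for this tissue in both groups. The change was -2.17 (SE 0.31, 95% interval -2.82 to -1.53, limma adjusted p = 0.00312), and without P10a, where Dlk1 was listed at 0, it was -2.002 with an adjusted p of 0.0281. Over the 23 settings in which it was tested the adjusted p ran from 0.00236 to 0.285, and it missed the threshold in a fit of the 8 libraries alone, against a minimum change of 0.5, and without both P7c and P10a. In the age groups on either side, Dlk1 had a mean of 7.95 ± 1.51 FPKM (SD, n = 4) at P1.5-P2.5, and it was listed at 0 in all 4 libraries of P13.5-P15 and all 5 of P19-P28. Those later libraries show no spread for Dlk1 and are part of the fit, which can lower the SE of its change.

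Other growth genes of the fetus had lower values at P7-P10 as well, without passing the adjusted threshold. H19, a maternally expressed non-coding RNA from the same imprinted locus as Igf2, measured 124, 254, 197 and 255 FPKM at P4-P5 and 71.3, 67.1, 82.2 and 43.3 FPKM at P7-P10 (change -1.62, SE 0.37, adjusted p = 0.208). Igf2, the fetal insulin-like growth factor, averaged 29.7 ± 6.41 FPKM at P4-P5 and 10.7 ± 3.02 FPKM at P7-P10 (SD, n = 4 each, change -1.40, SE 0.38, adjusted p = 0.263). In both genes the highest P7-P10 library was below the lowest P4-P5 library. Plagl1, a zinc finger factor that sits in the same imprinted network, measured 35.1, 42.7, 37.4 and 50.4 FPKM at P4-P5 and 27.0, 33.0, 19.2 and 19.2 FPKM at P7-P10 (change -0.75, SE 0.20, adjusted p = 0.263). Meg3, the maternally expressed RNA of the Dlk1 locus, measured 42.7, 47.3, 29.4 and 41.4 FPKM at P4-P5 and 19.1, 24.5, 12.9 and 23.2 FPKM at P7-P10, and Mest measured 61.8, 83.5, 87.4 and 73.5 FPKM at P4-P5 and 58.5, 42.8, 2.55 and 24.9 FPKM at P7-P10. The low value of Mest in P10a carried much of its change, which was -1.80 with P10a and -0.92 without it.

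Of the 20 genes on the list of fetal growth factors 19 were tested. In 8 of them all P7-P10 libraries were below all P4-P5 libraries (9 without P10a), against 3.66% (5.35% without P10a) of all genes, and in none was it the other way around. The median change of the list was -0.75, and -0.65 without P10a, beside -0.11 and -0.05 for all genes. The transcription factors Sox4 and Sox11 had positive changes, 0.52 and 0.37 with adjusted p of 0.768 and 0.821, and Mycn, Ndn and Cdkn1c overlapped between the groups. Gpc3, a glypican of the cell surface that restrains growth, measured 271, 155, 164 and 123 FPKM at P4-P5 and 118, 127, 83.8 and 68.2 FPKM at P7-P10, with an overlap. In the next step, 38 of all genes tested were higher (0.298%) and 90 lower (0.705%) at P13.5-P15 than at P7-P10. Of the list, 3 were called, all of them lower: H19 (-2.54, adjusted p = 0.000495), Plagl1 (-1.01, adjusted p = 0.00738) and Grb10 (-0.93, adjusted p = 0.00448), an adaptor that inhibits insulin and IGF signalling. That step shares the P7-P10 libraries with the main comparison.

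**Figure D2:**
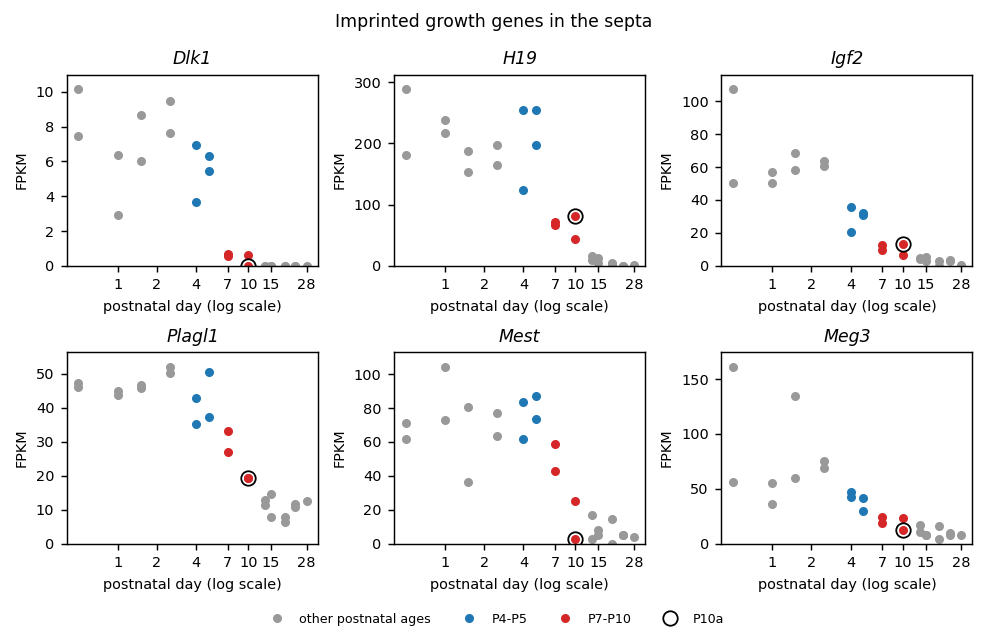
FPKM of Dlk1, H19, Igf2, Plagl1, Mest and Meg3 in each postnatal library against the postnatal day, on a log axis of days, with P4-P5 in blue, P7-P10 in red, other ages in grey and a ring around P10a. In every panel the red points lie below the blue ones, by the widest relative margin in Dlk1, where P10a is at 0.

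Genes of cell division had lower values at P7-P10 as a group. Mki67, the proliferation marker that coats mitotic chromosomes, measured 347, 304, 231 and 216 FPKM at P4-P5 and 154, 146, 88.5 and 60.0 FPKM at P7-P10, a mean of 274 ± 61.7 FPKM against 112 ± 45.5 FPKM (SD, n = 4 each). Top2a, the topoisomerase that untangles replicated DNA, measured 83.0, 66.6, 72.8 and 63.4 FPKM at P4-P5 and 43.8, 35.9, 23.4 and 17.8 FPKM at P7-P10. Cenpf, a kinetochore protein, measured 48.2, 59.2, 42.4 and 43.1 FPKM at P4-P5 and 26.5, 25.6, 14.7 and 9.87 FPKM at P7-P10. In all 3 genes each P7-P10 library was below each P4-P5 library, and within P7-P10 both libraries of P10 were below both of P7. Between the groups none of them passed (Mki67 change -1.36, SE 0.59, adjusted p = 0.495; Top2a -1.29, SE 0.59, adjusted p = 0.523). The trend over days passed for all 3: per doubling of the postnatal day, Mki67 fell by 1.58 on the log2 scale (SE 0.17, adjusted p = 0.0163), Cenpf by 1.57 (SE 0.18, adjusted p = 0.0195) and Top2a by 1.42 (SE 0.18, adjusted p = 0.0255). Without P10a the trend of Mki67 had an adjusted p of 0.0344, and without P10f the trend called none of the 3. Mki67, Top2a, Cenpf and the other division genes given by the trend were chosen after their values were seen.

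The 25 genes on the mitosis list were all tested. In 14 of them (15 without P10a) the P7-P10 libraries lay wholly below the P4-P5 libraries, where 3.66% (5.35%) of all genes did, and in 24 of 25 the change was negative, as it was in 61.5% of all genes (56% without P10a). The median change was -1.32, and -1.22 without P10a. The 7 members called by the trend were Mki67, Cenpf, Top2a, Birc5, Ccna2, Cenpe and Melk, all falling, where 0.196% of all genes fell. Without P10a the calls of Birc5, Ccna2, Cenpe and Melk were lost, at adjusted p of 0.0564, 0.0564, 0.0661 and 0.0869, and without P10f all 7 were. Ccna2, the cyclin that carries cells through S phase into mitosis, measured 40.5, 37.0, 43.6 and 35.0 FPKM at P4-P5 and 22.6, 19.7, 12.5 and 9.51 FPKM at P7-P10. Melk, a kinase of dividing progenitors, measured 13.5, 10.4, 12.1 and 6.14 FPKM at P4-P5 and 3.53, 2.83, 0 and 1.29 FPKM at P7-P10, with P10a at 0. Foxm1, the transcription factor of late cell cycle genes, measured 13.6, 19.5, 16.2 and 17.4 FPKM at P4-P5 and 4.10, 10.3, 2.51 and 4.88 FPKM at P7-P10 (trend adjusted p = 0.0949), and the spindle checkpoint kinase Bub1b 16.7, 11.7, 13.1 and 12.6 FPKM at P4-P5 and 1.80, 6.47, 3.86 and 3.80 FPKM at P7-P10 (trend adjusted p = 0.199). Cdk1, the kinase that drives entry into mitosis, spread more widely within P4-P5 and overlapped, at 26.8, 15.2, 8.08 and 6.34 FPKM at P4-P5 and 3.499, 8.75, 1.93 and 2.25 FPKM at P7-P10. Ube2c alone on the list had a positive change, 0.14, and it rested on P10a, where it read 12.0 FPKM against 0, 0 and 2.88 FPKM in P7c, P7d and P10f. Aurkb was likewise highest in P10a, at 22.5 FPKM. Beyond the list, the trend also called the lamin Lmnb1 (-1.31, adjusted p = 0.0259) and the condensin subunit Smc2 (-1.31, adjusted p = 0.0302), both falling, and neither was called without P10a (adjusted p = 0.0686 for each).

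**Figure D3:**
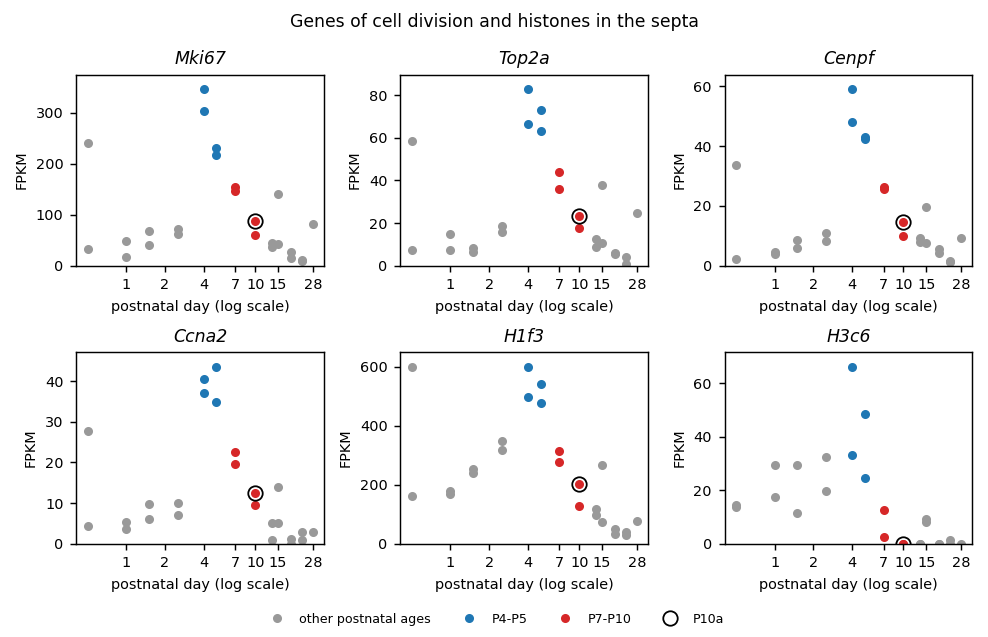
FPKM of the division genes Mki67, Top2a, Cenpf and Ccna2 and the histone genes H1f3 and H3c6 in each postnatal library against the postnatal day on a log axis, with P4-P5 in blue, P7-P10 in red, other ages in grey and P10a ringed. The P4-P5 points stand above those of P7-P10 in every panel, and for Mki67 they also stand above those of P1.5-P2.5, which averaged 60.8 FPKM.

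The means of Mki67 and Top2a were higher at P4-P5 than in any other postnatal group. That of Mki67 was 60.8 ± 13.8 FPKM at P1.5-P2.5, 274 ± 61.7 FPKM at P4-P5, 112 ± 45.5 FPKM at P7-P10 and 66.3 ± 50.3 FPKM at P13.5-P15 (SD, n = 4 each). Top2a followed with 12.4 ± 5.81, 71.5 ± 8.64, 30.2 ± 11.8 and 17.6 ± 13.6 FPKM. In both genes the P4-P5 libraries were above every library of P1.5-P2.5 and of P7-P10. The step into P4-P5 was 2.16 for Mki67 (adjusted p = 0.12) and 2.53 for Top2a (adjusted p = 0.0693), which did not pass, and for Smc2 it was 2.22 and passed (adjusted p = 0.0456). From P1.5-P2.5 to P4-P5, 7 genes in all were called higher (0.0548%) and 4 lower (0.0313%), none of them on the mitosis, replication or histone lists. A test of whether the P4-P5 to P7-P10 change differed from the change before it called 1 gene, the non-coding RNA 1700092M07Rik, with a difference of -5.95 (adjusted p = 0.0268). It was not called without P10a (adjusted p = 0.0588).

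Genes of DNA synthesis had the same direction. All 27 on the replication list were tested, and all 27 changes were negative (61.5% over all genes), with a median of -1.03 (-0.79 without P10a). In 9 (10 without P10a) the P7-P10 libraries were wholly below those of P4-P5, against 3.66% (5.35%) of all genes. Rrm1, the large subunit of the ribonucleotide reductase that supplies DNA precursors, measured 34.2, 21.4, 24.7 and 23.5 FPKM at P4-P5 and 11.9, 18.4, 8.40 and 7.42 FPKM at P7-P10. Fen1, the flap nuclease of lagging strand synthesis, measured 18.0, 13.6, 12.4 and 13.7 FPKM at P4-P5 and 2.90, 9.47, 0.257 and 4.66 FPKM at P7-P10 (change -1.89, SE 0.46, adjusted p = 0.208). Cdc45, part of the replicative helicase, measured 16.2, 14.0, 10.7 and 5.87 FPKM at P4-P5 and 3.39, 3.28, 0 and 4.39 FPKM at P7-P10. In Rrm1 and Cdc45, both on the list, the libraries of the groups did not overlap. Fen1 is not on the list and was picked by the rule that asks for no overlap. P10a or P10f was the lowest in all 3. P10a listed 8 of the 27 at 0 and P7c 2. Rad51ap1, a DNA repair protein, measured 13.5, 10.5, 15.3 and 6.51 FPKM at P4-P5 and 0.511, 2.44, 0 and 1.65 FPKM at P7-P10 and Ska3, a spindle attachment protein, 3.41, 14.1, 4.52 and 5.92 FPKM at P4-P5 and 0.804, 2.32, 0 and 0.301 FPKM at P7-P10, and both were among the 12 lower genes picked by rule.

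Histone genes, whose RNAs mostly lack a poly(A) tail and are kept by the total RNA method used here, showed it too. Of 25 listed, 23 were tested and all 23 changes were negative (61.5% over all genes), with a median of -1.27 (-0.93 without P10a), and 7 (8 without P10a) were wholly lower, against 3.66% (5.35%) of all genes. H3c6, a replication-dependent H3 gene at chr13:23561475-23562385, measured 33.3, 66.2, 48.5 and 24.4 FPKM at P4-P5 and 2.65, 12.7, 0 and 0 FPKM at P7-P10. Its change of -3.96 (SE 0.71) had an adjusted p of 0.0509, with a range from 0.000108 to 0.543 over 24 settings, and its trend of -4.37 per doubling of day fell with an adjusted p of 0.0163. The linker histones H1f2 and H1f3 fell in the trend as well, at adjusted p of 0.0470 and 0.0278, and both calls were lost without P10a, at 0.0920 and 0.0537. H1f2 measured 780.1, 608, 609.9 and 530.3 FPKM at P4-P5 and 444, 401, 264 and 167 FPKM at P7-P10, and H1f3 497, 601, 542 and 478 FPKM at P4-P5 and 316, 278, 202 and 127 FPKM at P7-P10. Neither was at 0 in any library, and P10a and P10f were the lowest for both. The replication-dependent histone genes are near-identical copies in clusters, and how the authors' counting shared reads between copies is not given in the sources used here, so the values of single genes are uncertain.

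The upstream sequences of 4 mitosis genes and of H3c6 are shown because such genes are known to share short promoter elements. They were chosen after the values were seen, and include Cdk1, which overlapped between the groups and was not called by the trend, and Birc5, which fell in the trend. Each is the 250 bases before the start annotated by RefSeq on GRCm38.p6, written 5′ to 3′ on the strand of the gene, with capitals marking the cell cycle genes homology region (CHR, TTTGAA) and the CCAAT box (CCAAT) on either strand. Mki67 is at chr7:135716380-135716629, Top2a at chr11:99024190-99024439, Cdk1 at chr10:69352913-69353162 and H3c6 at chr13:23562386-23562635, all on the minus strand, and Birc5 at chr11:117848987-117849236 on the plus strand.
Mki67: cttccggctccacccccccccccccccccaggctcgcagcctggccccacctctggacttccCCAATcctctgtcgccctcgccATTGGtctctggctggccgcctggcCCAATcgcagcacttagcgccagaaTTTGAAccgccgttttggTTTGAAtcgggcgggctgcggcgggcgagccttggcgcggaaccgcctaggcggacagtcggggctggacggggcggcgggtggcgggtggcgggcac
Top2a: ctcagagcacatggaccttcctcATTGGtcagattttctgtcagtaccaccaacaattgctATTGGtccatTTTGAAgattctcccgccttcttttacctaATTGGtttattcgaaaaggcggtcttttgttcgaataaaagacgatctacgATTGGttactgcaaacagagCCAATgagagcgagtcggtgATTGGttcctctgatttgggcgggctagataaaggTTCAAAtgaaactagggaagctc
Cdk1: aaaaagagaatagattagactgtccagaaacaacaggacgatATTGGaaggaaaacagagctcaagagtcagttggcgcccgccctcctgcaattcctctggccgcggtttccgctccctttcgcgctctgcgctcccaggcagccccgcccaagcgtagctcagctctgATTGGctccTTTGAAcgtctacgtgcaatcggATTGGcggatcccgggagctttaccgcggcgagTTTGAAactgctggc
Birc5: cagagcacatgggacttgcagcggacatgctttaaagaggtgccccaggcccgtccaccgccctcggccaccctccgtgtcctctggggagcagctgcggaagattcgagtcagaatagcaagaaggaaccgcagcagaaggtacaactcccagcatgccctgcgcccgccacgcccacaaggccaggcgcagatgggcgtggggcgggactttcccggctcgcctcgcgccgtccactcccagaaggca
H3c6: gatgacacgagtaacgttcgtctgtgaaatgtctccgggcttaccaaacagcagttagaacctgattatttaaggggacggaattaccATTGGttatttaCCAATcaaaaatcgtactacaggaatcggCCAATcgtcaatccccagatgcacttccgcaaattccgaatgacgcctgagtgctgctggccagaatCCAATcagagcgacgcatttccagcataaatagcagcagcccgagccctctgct

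The Mki67, Top2a and Cdk1 windows each hold 2 CHR matches, with 3, 6 and 3 CCAAT matches, while H3c6 holds 4 CCAAT matches and no CHR, and Birc5 holds neither. A promoter was found for 20 of the mitosis genes, 23 of the replication genes, 20 of the histone genes and 10128 of all genes tested. CHR and CCAAT together were present in 7 of 20 mitosis promoters (35%), 2 of 23 replication promoters (8.7%) and 8 of 20 histone promoters (40%), against 4.16% of promoters of all genes tested. A CHR, with or without a CCAAT box, was in 8 of 20 (40%), 2 of 23 (8.7%) and 8 of 20 (40%) against 10.7%. A CCAAT box, with or without a CHR, was in 15 (75%), 14 (60.9%) and 18 (90%) of the mitosis, replication and histone promoters against 35.8%. A TATA box (TATAAA) was in 12 of 20 histone promoters (60%) against 6.51%. Histone genes sit in pairs that can share 1 promoter region, so their windows are not independent. The matches are a description of the letters in these windows.

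Several genes had higher values at P7-P10 in every library, and none of them passed between the groups. Of the 12 picked by rule, Slfn5 had the lowest p. It is a Schlafen family gene at chr11:82951349-82964850 and measured 26.6, 26.1, 27.8 and 28.9 FPKM at P4-P5 and 38.8, 52.4, 49.5 and 65.8 FPKM at P7-P10, a mean of 27.3 ± 1.25 FPKM against 51.6 ± 11.1 FPKM (SD, n = 4 each). The change of 0.87 (SE 0.17) had an adjusted p of 0.0617, with a range from 0.0243 to 1 over 24 settings. Slfn5 averaged 78.6 ± 11.7 FPKM at P13.5-P15. Sema3c, a secreted semaphorin that guides vessels and axons through neuropilins and plexins, measured 38.2, 50.2, 70.8 and 62.9 FPKM at P4-P5 and 114, 81.4, 116 and 139 FPKM at P7-P10 (change 1.02, SE 0.21, adjusted p = 0.0992). Its trend rose by 1.12 per doubling of day (adjusted p = 0.0380), and its mean went on to 169 ± 25.7 FPKM at P13.5-P15. Ntrk2, the receptor of brain-derived neurotrophic factor, measured 1.68, 3.26, 6.91 and 10.3 FPKM at P4-P5 and 13.2, 15.9, 17.2 and 15.4 FPKM at P7-P10 (change 1.54, SE 0.34, adjusted p = 0.208). Its 4 values at P4-P5 spanned 1.68 to 10.3 FPKM and its values at P7-P10 only 13.2 to 17.3 FPKM.

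The rest of the 12 higher genes picked by rule were Rapgef4, Rftn1, Adamts8, Abcb1a, Prkcq, Pcsk5, Slc10a6, Adcy8 and Ccdc160, with changes of 0.78 to 2.34 and adjusted p of 0.208 to 0.274. Rapgef4, an exchange factor for Rap proteins that is switched on by cyclic AMP, measured 4.68, 6.64, 2.72 and 6.09 FPKM at P4-P5 and 13.8, 12.2, 14.3 and 12.2 FPKM at P7-P10. Abcb1a, the drug efflux pump P-glycoprotein of endothelium, measured 5.47, 4.18, 4.97 and 7.15 FPKM at P4-P5 and 14.0, 9.99, 11.6 and 12.1 FPKM at P7-P10. Pcsk5, a protease that activates secreted precursors, measured 24.6, 27.5, 24.9 and 25.4 FPKM at P4-P5 and 44.2, 43.2, 51.8 and 40.0 FPKM at P7-P10. In these 3 the P7-P10 values were close together and clear of P4-P5. Slc10a6, a carrier of sulfated steroids, was uneven, with 1.38, 1.25, 1.26 and 2.04 FPKM at P4-P5 and 8.77, 6.90, 24.0 and 3.98 FPKM at P7-P10. In the opposite direction the remaining genes picked by rule were Tubb4b, a beta tubulin at 205, 203, 201 and 134 FPKM at P4-P5 and 118, 132, 90.5 and 98.6 FPKM at P7-P10, and Nrk, Rps6kb2 and Dnttip1, all under 15 FPKM in each library.

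Besides Sema3c, 2 more of the 4 genes with a rising trend are given here, chosen after their values were seen. Retnla, a secreted protein of alternatively activated macrophages and airway epithelium, measured 6.19, 3.76, 18.8 and 7.29 FPKM at P4-P5 and 15.5, 18.2, 129.6 and 72.6 FPKM at P7-P10, rising by 2.87 per doubling of day (adjusted p = 0.0255). Its P10 libraries stood far above P7, and at the other postnatal ages it ranged from 0 to 131 FPKM without an order by age. Ehd4, a protein of endosomal recycling, measured 79.1, 74.4, 125 and 114 FPKM at P4-P5 and 138, 127, 182 and 211 FPKM at P7-P10 (trend 0.92, adjusted p = 0.0470). None of the 4 rising calls held without P10a.

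**Figure D4:**
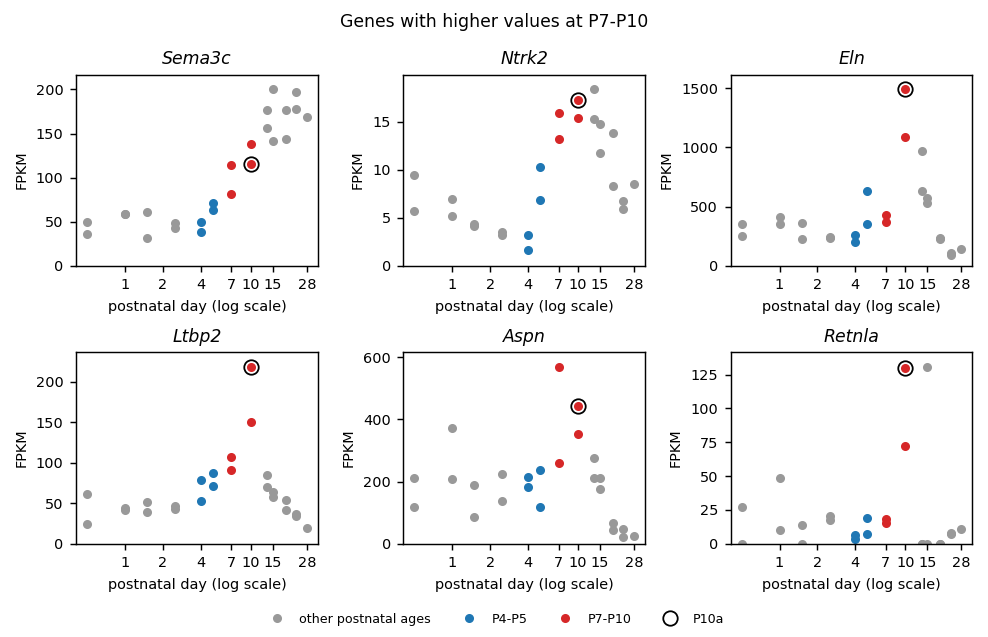
FPKM of Sema3c, Ntrk2, Eln, Ltbp2, Aspn and Retnla in each postnatal library against the postnatal day on a log axis, with P4-P5 in blue, P7-P10 in red, other ages in grey and P10a ringed. Sema3c, Ntrk2, Ltbp2 and Aspn separate the 2 groups, whereas in Eln and Retnla the P10 libraries are high and the P7 libraries lie among those of P4-P5.

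Genes of the elastic fibre showed no shared direction. Eln measured 198, 259.7, 634 and 349 FPKM at P4-P5 and 367, 431, 1494 and 1087 FPKM at P7-P10 (change 1.12, SE 0.39, adjusted p = 0.363). Both P10 libraries were far above every other library and both P7 libraries were below P5b. Ltbp2, a protein of the elastic microfibril, measured 52.3, 78.7, 87.0 and 71.8 FPKM at P4-P5 and 91.6, 108, 219 and 151 FPKM at P7-P10 (change 0.91, SE 0.28, adjusted p = 0.310) and did not overlap. Fbln5, which anchors elastin to cells, went the other way, from 48.7, 55.3, 50.8 and 37.8 FPKM at P4-P5 and 54.0, 39.6, 32.9 and 22.8 FPKM at P7-P10. Of the 19 elastic fibre genes tested 1 was wholly higher and 0 wholly lower (1.56% and 3.66% of all genes), and the median change was -0.01, or 0.08 after quantile normalization. After P7-P10 the list had 2 calls, Fbn2 and Loxl2, both lower at P13.5-P15, where 0.705% of all genes were called lower.

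The 18 myofibroblast genes had a median change of -0.12, which was -0.004 without P10a and 0.04 after quantile normalization. Acta2, smooth muscle actin, measured 210.3, 189, 243 and 164 FPKM at P4-P5 and 174, 153, 143 and 102 FPKM at P7-P10 (change -0.51, SE 0.30, adjusted p = 0.649). Pdgfra, the receptor by which these cells are recruited, had 44.3 ± 2.48 FPKM at P4-P5 and 52.8 ± 7.06 FPKM at P7-P10 (SD, n = 4 each, change 0.24, adjusted p = 0.745). Aspn, a small proteoglycan of the matrix, was the 1 member that was wholly higher (1.56% of all genes were), at 216, 182, 236 and 119 FPKM at P4-P5 and 570.3, 261, 443 and 353 FPKM at P7-P10 (change 1.09, SE 0.36, adjusted p = 0.340). The steps on either side were larger for this list. Pdgfra rose by 0.97 into P4-P5 (adjusted p = 0.0308) and by 0.77 after P7-P10 (adjusted p = 0.0310). After P7-P10, 6 members fell, where 0.705% of all genes did: Acta2 (-1.46, adjusted p = 0.00981), Tgfbi (-1.96, adjusted p = 0.00187), Actg2 (-1.78, adjusted p = 0.0463), Myh11, Myl9 and P2ry14. A limma test of whether the change after P7-P10 differed from the change into it called no gene in either direction, with 656 genes higher and 408 lower at p under 0.05 before adjustment.

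Collagens and the provisional matrix showed no shared direction, with median changes of -0.02 over 20 genes (0.11 after quantile normalization) and 0.01 over 15. Within the collagens, the basement membrane chains Col4a3 and Col4a4 had negative changes (-0.72 and -0.58) and Col12a1, a collagen of fibril surfaces, a positive one (0.56), with adjusted p of 0.379, 0.373 and 0.444. Vcan, the large proteoglycan of provisional matrix, measured 132, 103, 110.1 and 75.2 FPKM at P4-P5 and 107, 106, 31.3 and 40.6 FPKM at P7-P10. Its P7 libraries were level with P4-P5 and its P10 libraries much lower, and after P7-P10 it fell further by 2.42 on the log2 scale (adjusted p = 9.73e-05). Among 13 matrix proteases Adamts17 was wholly higher (1.56% of all genes were), at 39.0, 34.0, 49.2 and 38.0 FPKM at P4-P5 and 60.8, 63.3, 74.9 and 62.8 FPKM at P7-P10.

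Signalling genes gave few members that separated the groups. In the Hedgehog pathway, Scube2, which helps release the lipid-bound ligand, measured 10.2, 12.6, 10.2 and 8.03 FPKM at P4-P5 and 24.5, 17.0, 17.3 and 28.7 FPKM at P7-P10 (change 1.01, SE 0.30, adjusted p = 0.300), and it rose again by 1.36 after P7-P10 (adjusted p = 0.0198). Gli1, the pathway's target and transcription factor, measured 5.72, 9.52, 7.20 and 8.76 FPKM at P4-P5 and 3.85, 3.89, 1.06 and 8.20 FPKM at P7-P10. Among 34 TGF-beta and BMP genes 1 was wholly higher and 2 wholly lower, beside 1.56% and 3.66% of all genes. The ligand Bmp2 measured 5.38, 5.17, 7.68 and 5.40 FPKM at P4-P5 and 18.2, 12.0, 8.54 and 10.6 FPKM at P7-P10. Grem1, an inhibitor of BMPs, measured 1.46, 3.00, 4.04 and 2.47 FPKM at P4-P5 and 6.24, 3.70, 14.2 and 8.36 FPKM at P7-P10, with the highest value in P10a, and fell after P7-P10 by 2.32 (adjusted p = 0.0272). The FGF and PDGF list (20 tested) had a median change of 0.14 and no member without overlap. Fgfr1, a receptor, measured 47.7, 37.9, 47.4 and 41.2 FPKM at P4-P5 and 44.8, 67.8, 78.7 and 52.5 FPKM at P7-P10, and Spry4, an inhibitor that the pathway induces, 30.4, 36.0, 38.8 and 50.8 FPKM at P4-P5 and 52.1, 60.0, 68.5 and 39.0 FPKM at P7-P10. Of 36 Wnt genes 2 were wholly lower (3.66% of all genes), Ctnnb1, the beta-catenin that carries the signal, at 138, 124, 129.9 and 122 FPKM at P4-P5 and 119, 106, 102 and 96.0 FPKM at P7-P10, and the ligand Wnt11. The Wnt median of -0.25 became -0.03 without P10a. Among the retinoid genes Crabp1, a retinoic acid binding protein, measured 1.65, 2.36, 0.648 and 2.36 FPKM at P4-P5 and 22.1, 4.98, 4.19 and 10.6 FPKM at P7-P10. In the IGF list 2 of 16 were wholly lower (3.66% of all genes), Igf2 and Igf1, the latter at 50.6, 36.3, 43.1 and 48.6 FPKM at P4-P5 and 35.1, 35.6, 34.0 and 35.4 FPKM at P7-P10 (change -0.33, SE 0.41).

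Of the transcription factors of the mesenchyme Hoxa5 measured 9.44, 14.6, 15.5 and 17.8 FPKM at P4-P5 and 20.6, 20.8, 36.0 and 25.8 FPKM at P7-P10 (change 0.80, SE 0.30, adjusted p = 0.404) and did not overlap. Tcf21, Foxf1 and Tbx5, which pattern the lung mesenchyme, had changes of -0.12, -0.07 and 0.14. Of 19 epithelial factors tested Id2 and Grhl2 were wholly lower (3.66% of all genes were), with changes of -0.52 and -0.47. Foxa2, at 0 in P10a, had a change of -1.10 with that library and -0.14 without it.

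Type 1 cell genes leaned lower. Cldn18, the claudin that seals alveolar epithelium, measured 149, 116, 119.7 and 149 FPKM at P4-P5 and 94.7, 84.0, 47.4 and 60.1 FPKM at P7-P10 (change -0.93, SE 0.22, adjusted p = 0.208), and Sema3e measured 38.7, 31.4, 31.6 and 52.8 FPKM at P4-P5 and 28.8, 27.1, 7.47 and 12.7 FPKM at P7-P10 (change -1.14, SE 0.31, adjusted p = 0.270). In these 2 of 17 genes the groups did not overlap, where 3.66% of all genes were wholly lower (5.35% without P10a). Of the 17 changes 14 were negative, as were 61.5% over all genes. Pdpn, a surface glycoprotein of type 1 cells, measured 77.7, 70.2, 49.2 and 44.8 FPKM at P4-P5 and 52.2, 37.5, 28.6 and 11.1 FPKM at P7-P10, and Ager, a receptor they carry in large amounts, 359 ± 89.3 FPKM at P4-P5 and 248 ± 77.9 FPKM at P7-P10 (SD, n = 4 each, change -0.56, adjusted p = 0.563). Hopx, a homeodomain protein of type 1 cells, measured 57.5, 41.4, 62.1 and 46.7 FPKM at P4-P5 and 31.1, 48.5, 7.92 and 32.6 FPKM at P7-P10, and its change of -0.99 was -0.47 without P10a. The list's median was -0.37, and -0.43 without P10a. The summed FPKM of the 4 fixed type 1 markers ran from 434 to 691 at P4-P5 and from 254 to 450 at P7-P10. Type 2 cell genes had a median of -0.07, with Sftpc, surfactant protein C, at 13247, 10386, 9749 and 8633 FPKM at P4-P5 and 10585, 8248, 5350 and 9256 FPKM at P7-P10. Lyz1 was the 1 of 18 wholly lower (3.66% of all genes were), at 306, 296, 407 and 379.6 FPKM at P4-P5 and 239, 219.8, 104 and 246 FPKM at P7-P10. Scd1, a lipid desaturase, was highest in both P10 libraries, at 102, 74.7, 121 and 171 FPKM at P4-P5 and 157, 141, 295 and 251 FPKM at P7-P10.

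Vessel genes had small positive medians. Pecam1 and Kdr, pan-endothelial surface proteins, had changes of 0.15 and 0.10 with adjusted p of 0.848 and 0.909. Ptprb, the phosphatase that restrains the Tie2 receptor, measured 114, 118, 111 and 125 FPKM at P4-P5 and 142, 149, 184 and 149 FPKM at P7-P10 (change 0.40, SE 0.20, adjusted p = 0.567). It was the 1 of 19 capillary genes wholly higher, where 1.56% of all genes were. Cldn5, the claudin of endothelial junctions, averaged 113 ± 22.8 FPKM at P4-P5 and 166 ± 17.0 FPKM at P7-P10 (SD, n = 4 each, adjusted p = 0.493), overlapping only through P5e and P10f. The medians were 0.14 for capillary genes, 0.15 for angiogenesis and 0.22 for pericytes. Without P10a they were 0.07, 0.09 and 0.14, and without both P7c and P10a 0.06, 0.06 and -0.01. Among the pericyte genes the guanylate cyclase subunits Gucy1a1 and Gucy1b1, which sense nitric oxide, had changes of 0.34 and 0.41 (adjusted p = 0.553 and 0.480).

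**Figure D5:**
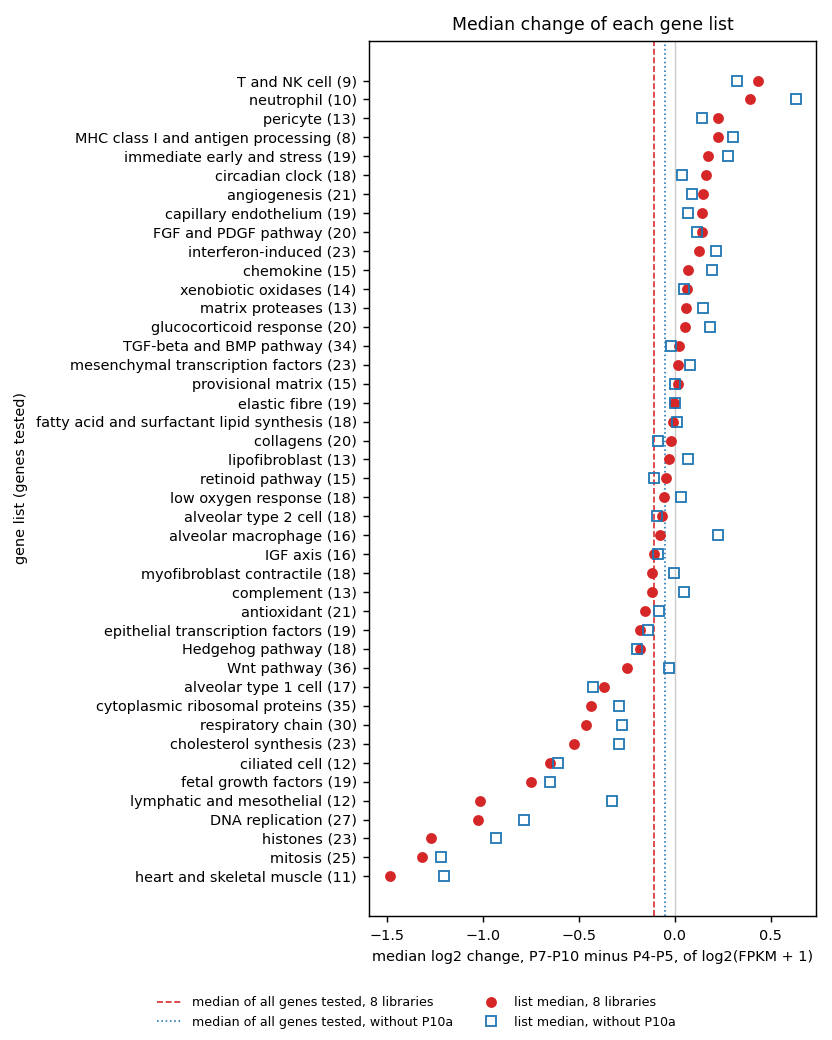
Median log2 change, P7-P10 minus P4-P5, of the 43 lists with at least 8 genes tested, with P10a and without it, beside lines for the medians of all genes. Heart and skeletal muscle, mitosis, histones, DNA replication, and lymphatic and mesothelial genes have the lowest medians, and the last of these moves from -1.01 to -0.33 when P10a is left out.

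Many immune genes were too low to be tested. Of the neutrophil genes 10 of 19 with values were tested, and of the T and NK cell genes 9 of 19. Cxcr2, the chemokine receptor of neutrophils, measured 0.598, 1.49, 0.651 and 0.482 FPKM at P4-P5 and 2.50, 3.44, 3.00 and 3.55 FPKM at P7-P10 (change 1.21, SE 0.40, adjusted p = 0.341) without overlap, and S100a9, a calcium-binding protein of the same cells, 114, 60.1, 37.0 and 94.7 FPKM at P4-P5 and 310, 176, 84.4 and 166 FPKM at P7-P10. Of 10 neutrophil genes tested 5 were at 0 in P10a, and the median was 0.39 with that library and 0.63 without it. T and NK cell genes had a median of 0.43 over 9. Without P10a it was 0.32, and 4 of the 9 changes were then negative. P10a listed 3 of the 9 at 0 and P7c 4. The list was led by Cd2 at 3.29, 1.75, 2.42 and 9.72 FPKM at P4-P5 and 7.03, 8.54, 22.9 and 9.52 FPKM at P7-P10, with the highest value in P10a. The alveolar macrophage median changed sign with P10a, -0.08 with it, 0.23 without it and 0.20 after quantile normalization, and P10a listed 8 of the 16 at 0.

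The metabolic lists differed in their medians. Cholesterol synthesis (23 tested, 4 wholly lower, against 3.66% of all genes) had -0.53, and -0.29 without P10a. Insig1, the partner of the sterol sensor, measured 26.8, 29.9, 28.6 and 23.3 FPKM at P4-P5 and 16.4, 15.0, 13.9 and 19.8 FPKM at P7-P10 (change -0.71, SE 0.23, adjusted p = 0.337). P10a was the lowest, just below the other P7-P10 libraries. The respiratory chain list (30 tested, 5 wholly lower, against the same 3.66%) had -0.46, and -0.28 without P10a. Antioxidant genes (21 tested) had -0.16, and -0.08 without P10a. Genes of fatty acid and surfactant lipid synthesis (18 tested) had a median of -0.01 and xenobiotic oxidases (14 tested) one of 0.065, both above the -0.11 of all genes. Cox5b, a subunit of complex IV, measured 230.3, 134, 119 and 145 FPKM at P4-P5 and 28.7, 109, 39.5 and 85.0 FPKM at P7-P10, with P7c and P10a lowest. All 35 ribosomal protein genes had negative changes (61.5% over all genes, 56% without P10a), with a median of -0.44 and no gene without overlap, and without P10a 32 of 35 were negative. The metallothionein Mt1 measured 34.1, 35.8, 32.4 and 18.4 FPKM at P4-P5 and 0, 4.10, 0 and 9.53 FPKM at P7-P10 (change -3.48, SE 0.97, adjusted p = 0.270), with 0 in P7c and P10a. Fos, an immediate early gene, measured 2.91, 1.27, 9.45 and 6.75 FPKM at P4-P5 and 20.2, 9.67, 18.4 and 13.5 FPKM at P7-P10 (change 1.62, SE 0.52, adjusted p = 0.328), and Hlf, an output factor of the clock, 5.33, 5.52, 7.13 and 5.10 FPKM at P4-P5 and 7.95, 9.88, 16.3 and 17.8 FPKM at P7-P10. Times of day of the collections are not given in the sources used here.

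Markers of cells from outside the septum were present in both groups, and the range of each sum overlapped between them. Heart and skeletal muscle genes summed to 63.3 to 742 FPKM at P4-P5 and 44.7 to 109 FPKM at P7-P10, with the top in P5b, where Tnni3 was 91.4 FPKM, and 188 FPKM as the next highest sum. Of the 19 listed 11 were tested and their median change was -1.49. Lymphatic and mesothelial genes summed to 254 to 391 FPKM and 151 to 285 FPKM. That list includes Pdpn, which also serves here as a type 1 cell marker, so the sum is not of outside cells alone. Msln, the marker of the pleural surface, measured 27.2, 38.5, 17.3 and 25.4 FPKM at P4-P5 and 11.7, 10.7, 9.47 and 5.72 FPKM at P7-P10 and fell in the trend by 1.52 (adjusted p = 0.0380), and Krt19 measured 52.5, 46.8, 29.4 and 53.7 FPKM at P4-P5 and 19.8, 23.9, 2.95 and 22.2 FPKM at P7-P10. Ciliated cell genes summed to 40.0 to 115 FPKM and 25.6 to 83.9 FPKM, and club cell genes to 1137 to 6213 FPKM and 1474 to 5813 FPKM. Erythroid genes summed to 7.43 to 58.4 FPKM and 19.8 to 103 FPKM. These sums cover 6 of the 16 genes listed and no haemoglobin gene, because the haemoglobin names were not matched to the matrix. They are therefore no measure of all red cell RNA. The median change of the 4 erythroid genes tested was 0.68, the highest of the lists, and 0.82 without P10a. The part of these outside cells in the changes of septal genes was not tested.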

How the data were processed

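Each of 29 libraries came from the alveolar septa of 1 C57BL/6 mouse, cut from cryosections with a laser, and total RNA was sequenced on an Illumina HiSeq after removal of ribosomal RNA. By the submitters' processing notes STAR 2.5.1 was the aligner and mm10 the build, and the authors deposited FPKM values that Cufflinks 2.2.1 had computed. Aligner settings and gene annotation are not given in the sources used here. Read depth is unknown, so counting error could not be given, and the only error here is the spread between libraries, each from 1 animal.

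The matrix holds 24486 lines for 22779 gene IDs, of which 1226 are on more than 1 line, and of these the line of highest mean was kept. From the deposited FPKM, log2(FPKM + 1) was taken. Genes that reached 1 FPKM in 4 or more of the 8 libraries were tested, 12764 in all. One model of all 29 libraries in 8 age groups was fitted with limma 3.58.1 (R 4.3.3, empirical Bayes with an intensity trend), which gives 21 residual degrees of freedom, and P7-P10 was set against P4-P5. P-values were adjusted by Benjamini-Hochberg over all genes tested, with 0.05 as threshold. P-values of the group comparison rest on the spread between libraries within a group, pooled over all 8 age groups. Groups such as P4-P5 and P7-P10 join pups of different ages. Their spread, and the SD given with a group mean, therefore hold differences between ages as well as between animals. The trend was a straight line on log2 postnatal day over the 8 libraries alone. The scripts were tested on simulated data.

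Named genes were the 12 per direction with no overlap between the groups, a mean of at least 5 FPKM, the same sign and an unadjusted p under 0.05 without P10a, taken first by call and then by p, leaving out predicted genes, pseudogenes, small RNAs and sex-linked genes, where 69 higher and 163 lower genes met these criteria. Up to 4 genes per list with the lowest p, Hopx, and further genes chosen after their values were seen were added. The groups, members and 48 gene lists (932 names, 789 genes tested) were chosen with earlier results of these data known. Gene symbols were found for 22725 IDs, and promoters were taken from RefSeq on GRCm38.p6. Tables and plots were made with Python 3.11.15, pandas 2.3.3 and matplotlib 3.10.9. Alternatives covered single libraries, zeros, pseudocount, filters, scaling, grouping, the sex label and weights.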

Additional observations from a re-analysis of the deposited data

Results flagged for a closer look

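Within a group of 4 libraries, a gene was marked when its highest or lowest library stood further from the rest than Dixon's 95% limit on the log2 scale allows. This applied to 12 of 227 groups over the 114 genes checked in this way, where chance gives about 1 in 20. The library P10a was the low one in 5 of them. It read 0 FPKM for Dlk1 against 0.538 to 0.655 FPKM in the other P7-P10 libraries, 3.39 FPKM for Ndn against 12.2 to 14.7 FPKM, 0 FPKM for Cdc45 against 3.28 to 4.39 FPKM, 104.5 FPKM for Lyz1 against 219.8 to 246.3 FPKM, and 2.95 FPKM for Krt19 against 19.8 to 23.9 FPKM. P10f was low for Mycn at 3.10 FPKM against 5.97 to 6.32 FPKM, and for Nrk at 0.128 FPKM against 1.85 to 2.30 FPKM. P7c read 0 FPKM for Wnt11, with 2.55 to 2.95 FPKM in the others. Within P4-P5, P4a was low for Ndn (9.50 FPKM against 14.8 to 15.6 FPKM), P5e was low for Tubb4b (133.7 FPKM against 200.6 to 205 FPKM) and for Mt1 (18.4 FPKM against 32.4 to 35.8 FPKM), and P5b was high for Bmp2 (7.68 FPKM against 5.17 to 5.40 FPKM).

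The non-coding RNA 1700092M07Rik was marked because its change from P4-P5 to P7-P10 (-2.98) differed from its change from P1.5-P2.5 to P4-P5 (2.98). The difference was -5.95 (limma adjusted p = 0.0268), and without P10a its adjusted p was 0.0588. Both changes use the P4-P5 libraries.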

How the results depend on the processing

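Between the groups, leaving out 1 library in turn gave 0 to 2 genes higher and 1 to 6 lower, against 0 and 1 in the main result. The most were without P5e (2 and 3) and without P7d (1 and 6). Treating 497 zeros of P10a as missing, the sum of repeat lines, a filter over all 29 libraries, and leaving out P10a, P19d and P19f together all gave 0 and 1. Sex as labelled, as a covariate, gave 0 and 1 too, but 6 of the 8 libraries went against that label, so the count says nothing about sex. With a pseudocount of 0.1 there were 0 and 2, without a filter 1 and 5, under median ratio scaling and under quantile normalization 2 and 2, with 15 age groups 0 and 3, and with array weights 1 and 2. No gene was called with a mean FPKM of at least 5 (Dlk1 is then not tested, and 221 genes were higher and 590 lower at an unadjusted p under 0.05), with the 8 libraries alone (263 and 782), against a minimum change of 0.5 (31 and 240), or without P7c and P10a (140 and 351). The change of Dlk1 ran from -3.67 to -1.92. The trend gave 4 and 25, with 0 to 5 rising and 0 to 32 falling when 1 library was left out, the 0 of each without P10f, and 9 and 30 after quantile normalization. The change of slope before P4-P5 called 1 gene lower, 0 without P10a and 0 after quantile normalization. That after P7-P10 called 0, and 2 lower after quantile normalization. The step into P4-P5 called 7 and 4, and after quantile normalization 33 and 30. Leaving out both P7c and P10a, or P10a with P19d and P19f, and all alternatives of the trend and the steps were chosen after seeing the data. Of 4680 values of single genes under other settings 40 changed sign, over 15 genes, none of them among the 24 picked by rule. In no case was a called direction reversed. No paired analysis was possible because the pup letters number animals within an age and pair no animals across ages. Read depth is not known, so no limit from depth can be given.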

Other observations

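Among the 20 genes at 1 FPKM or more in all 4 P4-P5 libraries and under 1 FPKM in all 4 P7-P10 libraries was Dlk1. The opposite pattern was met by 4 of the 12764 genes tested. P10a listed 1805 of the tested genes at 0 and P7c 810, against 95 to 224 in each of the other 6 libraries. Zeros in P10a and P7c make the first pattern easier to meet and the second harder, so no meaning is given to the difference between 20 and 4. The circadian clock list (18 tested) had 2 genes wholly higher and 1 wholly lower, beside 1.56% and 3.66% of all genes. Hlf, an output factor, averaged 5.77 ± 0.92 FPKM at P4-P5 and 13.0 ± 4.79 FPKM at P7-P10 (SD, n = 4 each, change 0.99, limma adjusted p = 0.453), and Bhlhe41, a repressor, was at 1.09 to 1.65 FPKM at P4-P5 and 0 to 0.727 FPKM at P7-P10. The glucocorticoid response list (20 tested) had Klf9, a factor induced by the hormone, at 17.9 ± 5.08 FPKM and 30.2 ± 4.01 FPKM (SD, n = 4 each, change 0.75, adjusted p = 0.489), and in the step after P7-P10 its members Zbtb16 and Hsd11b1 were called higher. Among interferon-induced genes, Gbp3 reached 57.6 FPKM in P10f against 3.09 to 14.1 FPKM in the other P7-P10 libraries (adjusted p = 0.752).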
